A study of Bos taurus with 6 samples.

Results

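FOS, EGR1, DUSP1, ZFP36 and IER3 are immediate-early genes, and their RNA was followed in the white blood cells of heifers sampled before and after severe cold. Members were all probe sets whose annotation gave one of these symbols and no other. The rule found 6 probe sets for 5 genes, out of 12763 probe sets in all, of which 8125 carry a single symbol and stand for 6337 genes. FOS had 2 probe sets and each other gene had 1. Levels are log2 of the deposited intensity of a probe set, and a change is the mean after cold minus the mean before cold on that scale. Levels were not compared between different probe sets, since each binds its target with its own strength.

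The animals were female Sanhe cattle kept in the same shed on the same ration. Cold meant 3 hours outdoors at -32 °C, after which the cattle spent 15 hours in a cowshed at 5 °C. The 6 RNA samples, 3 before and 3 after, came from 3 heifers chosen at random among 30, and the labels give neither the point of the later blood draw within this sequence nor which samples share an animal. They number the arrays after cold 1, 2 and 3 and those before cold 4, 5 and 6, and these numbers are used below. The groups share breed, sex, developmental stage and tissue, and the animals' ages are not given. The after samples were drawn later than the before samples. The time of sampling, and whatever else differed between the draws, cannot be told apart from the cold.

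Immediate-early genes are transcribed within minutes of a stimulus, without new protein synthesis, when MAP kinases activate transcription factors that already wait at their promoters. Their mRNAs are short-lived, so the response fades unless the stimulus persists. FOS and EGR1 encode transcription factors that pass the signal on to later genes. DUSP1, ZFP36 and IER3 mostly act as feedback and survival genes: DUSP1 removes phosphate from p38, JNK and ERK, ZFP36 binds AU-rich elements and speeds the decay of cytokine mRNAs, and IER3 modulates survival and ERK signalling. In blood leukocytes these genes are known to respond to activation and to stress hormones.

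The arrays did not separate by group. The first principal component of the log2 values held 68.4% of the variance and placed after 2 and before 6 together, with scores of 52.1 and 52.0, and after 3 at the other end with -63.2. After 2 and before 6 correlated at 0.995 across probe sets, which are not independent, and a gap of more than 2-fold between this pair was seen in 4 of them. The other pairs of arrays correlated at 0.870 to 0.986, with 107 to 4867 such probe sets. The 8 general leukocyte markers, among them PTPRC (CD45), were all measured and had mean levels of at least 10.2.

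All 5 genes had a higher mean after cold, by 0.27 to 0.69 on the log2 scale, or 1.21- to 1.61-fold, and none passed the test. With all 6 arrays FOS differed most and IER3 least, an order that single arrays set: without after 1, EGR1 (0.54) and ZFP36 (0.44) lay above FOS (0.35), and without after 3, EGR1 (0.12) and ZFP36 (0.18) lay below IER3 (0.26). In limma, a linear model with a variance estimate shared across probe sets, each of the 6 probe sets had an adjusted p of 1.00 (Benjamini-Hochberg over 12763 probe sets, two-sided). The share of all probe sets that passed an adjusted p of 0.05 was 0%. At an unadjusted p of 0.05, 0 of the 6 passed, beside 0.0313% of all probe sets that passed and were higher after cold and 0.462% that passed and were lower. A higher mean after cold was seen in 52.4% of all probe sets. These p-values treat the 6 arrays as independent, although samples share animals. The members were chosen with earlier results of these data known. Their shared direction and the ranks given below therefore describe them and are no independent evidence.

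FOS pairs with a JUN protein to make the transcription factor AP-1. Its probe set with the higher mean signal was at 8.87, 7.66 and 8.03 on after 1, 2 and 3, and at 7.96, 7.07 and 7.47 on before 4, 5 and 6. After 1 stood highest and before 5 lowest, and the groups overlapped because before 4 lay above after 2. The means were 8.18 ± 0.62 after and 7.50 ± 0.44 before cold (SD, n = 3 in each group). The change was 0.69 ± 0.38 (SE), with a 95% confidence interval from -0.19 to 1.57, which in folds runs from 0.874 to 2.97. Of all 12763 probe sets, 9 had a larger change upward, and 479 had a smaller unadjusted p in limma. Without the after 1 array the change was 0.35, and without before 5 it was 0.47.

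The other FOS probe set gave the same order of arrays. It was at 6.33, 5.14 and 5.59 after cold and at 5.49, 4.80 and 4.94 before. Its change of 0.61 ± 0.37 (SE, n = 3 in each group) was exceeded by 23 probe sets, and 690 had a smaller unadjusted p in limma. In both probe sets 8 of the 9 possible comparisons of an after array with a before array were higher after cold. The exception was after 2 against before 4. The probe sets read the same RNA extracts and are not separate replicates.

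EGR1 encodes a zinc finger transcription factor that acts beside AP-1 at the start of growth and activation programmes. Its levels were 6.86, 6.97 and 7.70 on after 1, 2 and 3, and 6.71, 6.79 and 6.89 on before 4, 5 and 6. A single array carried most of the difference: after 3 lay 0.73 above after 2, while after 1 and after 2 lay among or just above the before arrays. The change was 0.38 ± 0.30 (SE), with a 95% confidence interval from -0.30 to 1.06. Without after 3 it was 0.12. The before arrays were close together, with an SD of 0.094 against 0.46 after cold (n = 3 in each group).

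DUSP1, the MAP kinase phosphatase, was at 9.41, 8.96 and 9.51 on after 1, 2 and 3, and at 9.05, 8.94 and 8.80 on before 4, 5 and 6. After 1 and after 3 lay above every before array, and after 2 lay below before 4. The change was 0.37 ± 0.26 (SE), with a 95% confidence interval from -0.24 to 0.97. It ranged from 0.26 without after 3 to 0.53 without after 2. The spread was 0.30 after and 0.13 before cold (SD, n = 3 in each group).

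ZFP36, which encodes the mRNA decay factor tristetraprolin, was the one member whose groups did not overlap. It was at 9.69, 9.82 and 10.23 on after 1, 2 and 3, and at 9.58, 9.60 and 9.56 on before 4, 5 and 6. Each after array lay above each before array, and the lowest after array exceeded the highest before array by 0.091. Groups that did not overlap, with the after arrays higher, were found in 2.07% of all probe sets. The change was 0.33 ± 0.26 (SE), with a 95% confidence interval from -0.26 to 0.92, and it was 0.18 without after 3. The before arrays differed little (SD 0.021), and the after arrays more (SD 0.28, n = 3 in each group). An exact permutation test of this probe set gave p = 0.1, two-sided, the smallest p that 3 arrays against 3 allow.

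IER3 was at 7.65, 6.97 and 7.37 on after 1, 2 and 3, and at 7.27, 7.04 and 6.86 on before 4, 5 and 6. After 1 and after 3 were the highest, and after 2 lay below before 4 and before 5. The change was 0.27 ± 0.28 (SE), with a 95% confidence interval from -0.37 to 0.92. It was 0.12 without after 1, 0.18 without before 6 and 0.45 without after 2. Of the 9 comparisons of an after with a before array, 7 were higher after cold, the lowest number among the members. The exact permutation test, two-sided, gave p = 0.3 for IER3 and p = 0.2 for FOS (both probe sets), EGR1 and DUSP1, and this design cannot reach 0.05.

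**Figure D1:**
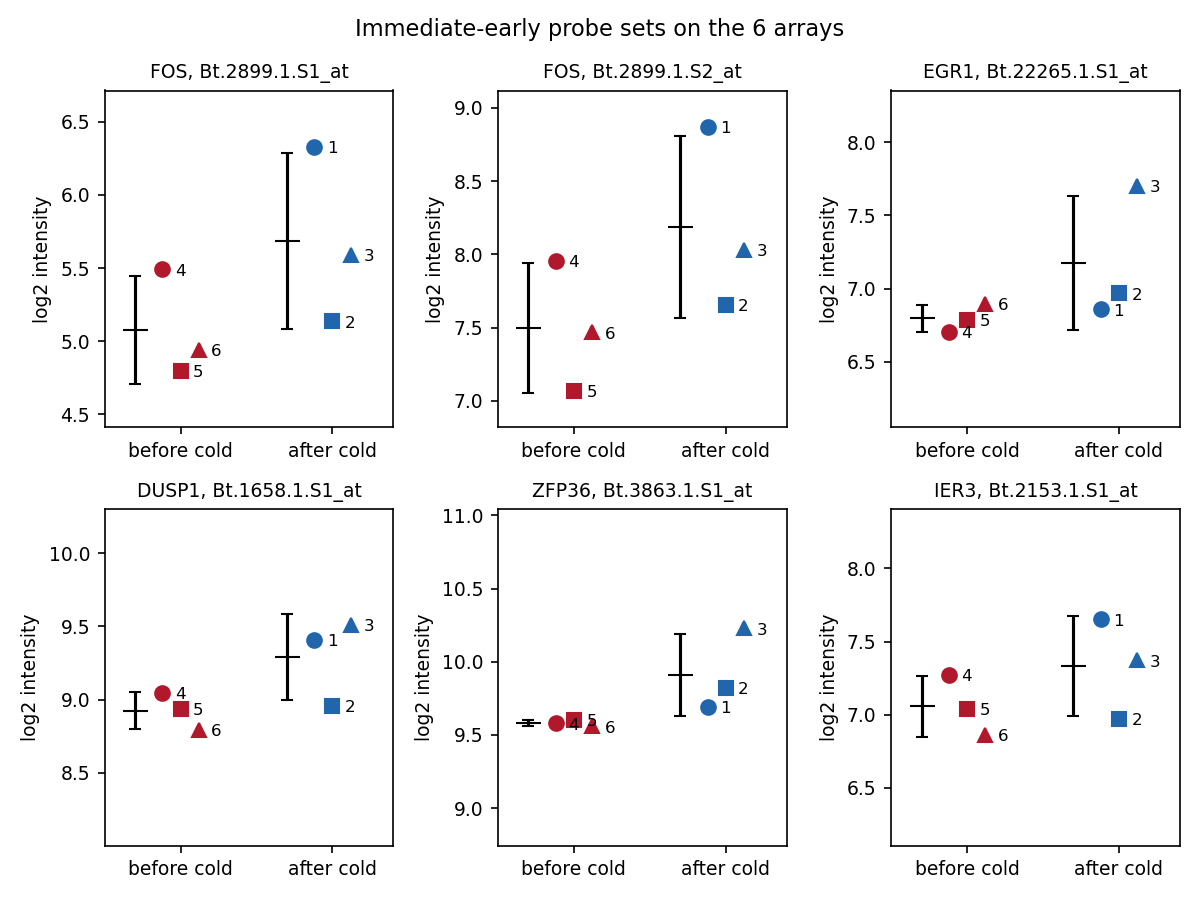
Log2 intensity (y axis) of the 6 probe sets on each array, before cold (red, arrays 4 to 6) and after cold (blue, arrays 1 to 3); numbers name the arrays, black bars are the group mean ± SD (n = 3), and every panel spans the same log2 range. The after mean is higher in each panel, the groups overlap in all but ZFP36, and after 1 leads FOS and IER3 while after 3 leads EGR1, DUSP1 and ZFP36.

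The 5 genes were not high on the same arrays. FOS and IER3 were highest on after 1, where FOS stood 1.03 and IER3 0.46 above its own mean over the 6 arrays. EGR1 and ZFP36 were slightly below their own means on that array, by -0.13 and -0.05. On after 3 the picture was turned: EGR1 stood 0.71 and ZFP36 0.48 above its mean, and FOS 0.19 and IER3 0.18. DUSP1 was high on both, with 0.30 on after 1 and 0.40 on after 3. After 3 was the only array on which all 5 genes lay above their own means.

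After 2 did not resemble the other after arrays in these genes. On after 2, 1 of the 5 genes lay above its own mean, ZFP36 at 0.07, and FOS stood at -0.19, DUSP1 at -0.15 and IER3 at -0.22. On before 5 and before 6, 0 of the 5 genes were above their means. On before 4, FOS and IER3 were, at 0.11 and 0.08. The mean deviation over the 5 genes was 0.32, -0.10 and 0.39 on after 1, 2 and 3, and -0.063, -0.29 and -0.26 on before 4, 5 and 6. Before 4 thus lay above after 2 in this mean.

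**Figure D2:**
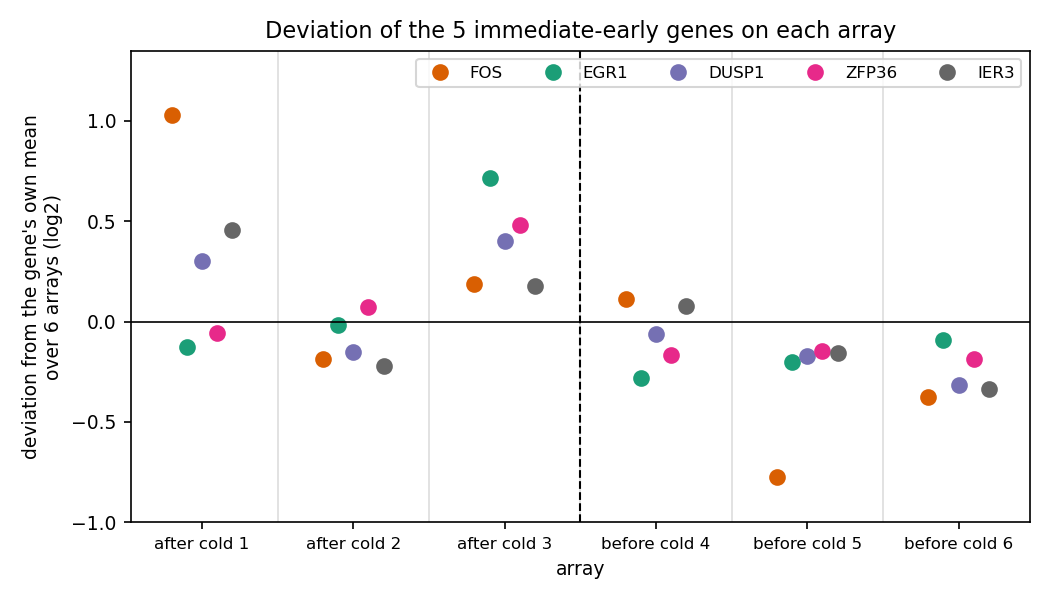
Deviation of each gene from its own mean over the 6 arrays (y axis, log2) on each array (x axis), with 1 coloured point per gene and the dashed line between after and before cold; FOS is shown by its probe set with the higher signal. FOS at 1.03 and IER3 lead on after 1, EGR1 at 0.71 and ZFP36 lead on after 3, and no gene lies above 0 on before 5 or before 6.

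After 2 and before 6 were the most similar arrays over the whole table and are set side by side here for the members. After 2 exceeded before 6 in all 6 member probe sets, by 0.20 and 0.19 for FOS, 0.072 for EGR1, 0.16 for DUSP1, 0.26 for ZFP36 and 0.11 for IER3. Over all probe sets 58.5% were higher on after 2 than on before 6, the median difference was 0.035 and the array medians differed by 0.054, so the difference of EGR1 was close to that of the arrays as a whole. These are differences between single arrays and have no replicate check. With after 2 and before 6 both left out, the changes over the remaining 4 arrays were 0.94 ± 0.41 (SE) for FOS, 0.53 ± 0.33 for EGR1, 0.47 ± 0.25 for DUSP1, 0.37 ± 0.28 for ZFP36 and 0.36 ± 0.26 for IER3. The lowest adjusted p among these 5 genes was then 0.523 in limma, for FOS.

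That each heifer gave blood at both times is inferred from 3 heifers and n = 3 in each group. If so, a comparison within animals would remove differences between animals, but the true pairs are not given. All 6 ways to match the arrays into pairs were therefore computed, and none is taken as the true one. ZFP36 was higher after cold in 3 of 3 pairs under every matching, which follows from its groups not overlapping. In 2 of the 6 matchings (1-4, 2-6, 3-5 and 1-5, 2-6, 3-4) each of the 5 genes was higher in 3 of 3 pairs. In the other matchings each gene was higher in 2 or 3 pairs. A block for the matching left every change as it was and altered its SE, which for FOS ran from 0.20 (1-4, 2-6, 3-5) to 0.47 (1-5, 2-4, 3-6). With limma the lowest adjusted p of FOS over the matchings was 0.492, so no matching brought it past the threshold.

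**Figure D3:**
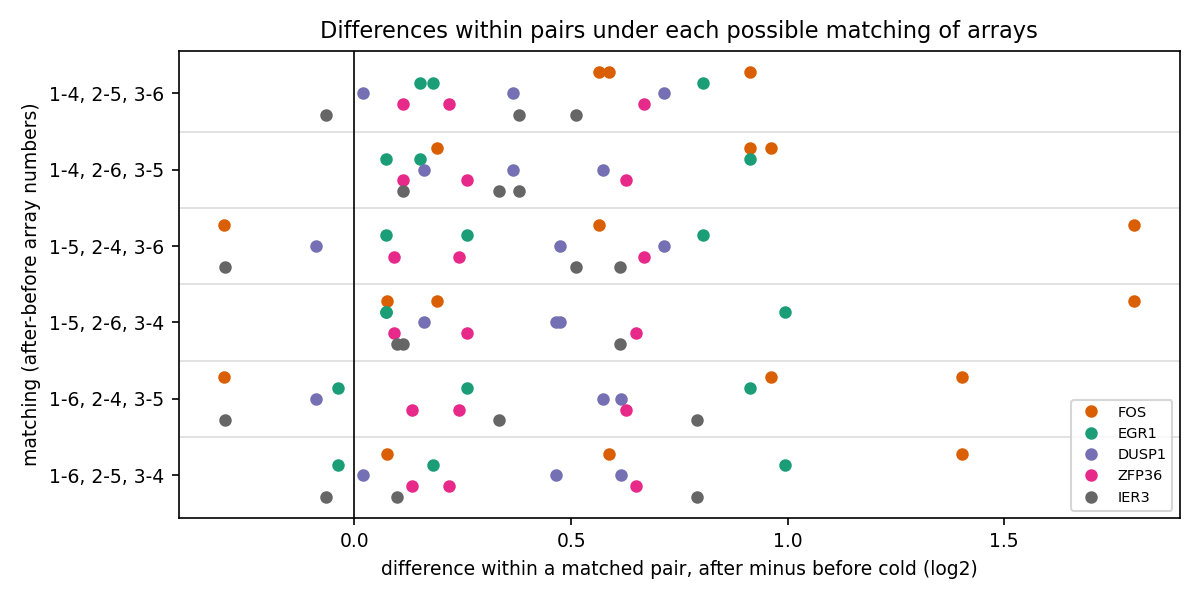
Differences within pairs (x axis, after minus before cold, log2) for the 5 genes (colours) under each of the 6 possible matchings of after and before arrays (rows), with 3 points per gene and matching. ZFP36 lies to the right of 0 in every row, and all genes do in the rows 1-4, 2-6, 3-5 and 1-5, 2-6, 3-4.

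The pathway around the 5 genes was read from 7 lists with 107 genes, of which 61 were measured. Of these 61, 47 were higher on average in the after arrays and 14 were lower, with a median change of 0.15. Over all 12763 probe sets 52.4% were higher, and the median was 0.02. The 2 sets are not alike, since each list gene stands as its probe set with the highest mean and the whole holds every probe set. None of the 61 passed the test over all probe sets, at an adjusted p or at an unadjusted p of 0.05. Without the 5 genes themselves the count was 42 higher of 56, with a median of 0.14. When single arrays were left out, between 38 (without after 2) and 48 (without after 1) of the 61 were higher. Of the 47 higher genes 22 kept this direction whichever single array was left out, as did 6 of the 14 lower ones. The lists were chosen with earlier results of these data known, so the counts describe them and are no independent evidence.

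Among the AP-1 subunits and their partners, the mean after cold was the higher in all 7 measured genes, and their median change was 0.17. This median was 0.37 without after 2, 0.085 without after 3 and 0.066 without before 6, and without after 3 or without before 6 the count was 5 of 7. The dimerization partners of FOS differed by 0.12 ± 0.28 (SE) for JUN, 0.36 ± 0.35 for JUNB and 0.12 ± 0.30 for JUND. JUNB was highest on after 3, at 10.09, and lowest on before 6, at 8.89. The stress-induced ATF3 differed by 0.15 ± 0.31 and BATF, an AP-1 factor of lymphocytes, by 0.37 ± 0.35. ATF3 is among the dimmest 25% of probe sets. FOSB and FOSL2 are not analysed here.

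Among EGR1 and the other early transcription factors, 9 of 10 had a higher mean, with a median of 0.16, or 0.057 without after 3 and 0.31 without after 1. Without the dimmest 25% of probe sets, which removes NAB2 and NR4A1 among others, 5 had a higher mean. NAB2, a corepressor that EGR1 induces and that restrains it, differed by 0.36 ± 0.39 (SE). It was highest on after 3, at 6.61, as EGR1 was, and without that array the change of NAB2 was 0.01. The nuclear receptor NR4A1 was also highest there, at 6.20, and lowest on after 2, at 4.20, and its change of 0.16 ± 0.49 was -0.37 without after 3. MYC differed by 0.26 ± 0.29 and KLF4, a Krüppel-like factor of monocytes, by 0.15 ± 0.24. ID2, an inhibitor of basic helix-loop-helix factors, was the gene with a lower mean. It was at 9.39, 9.46 and 9.21 after cold and at 9.83, 9.64 and 9.84 before, and the groups did not overlap, which was the case with lower after arrays in 2.31% of all probe sets. ID2 was named for a small p within its list, which favours groups without overlap. The change of this ID2 probe set was -0.42 ± 0.24, and the other probe set of ID2 had the opposite sign.

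Among the phosphatases and other feedback genes around DUSP1, 5 of 6 had a higher mean, with a median of 0.34, or 0.22 without before 5. Without the dimmest 25% of probe sets, which removes DUSP10 and SPRY2, 3 had a higher mean. DUSP10, a phosphatase of p38 and JNK, was at 5.56, 5.91 and 5.74 after cold and at 5.42, 5.13 and 5.42 before. SPRY2, an inhibitor of receptor signalling to ERK, was at 4.52, 4.77 and 4.51 after and at 4.09, 4.25 and 4.34 before. In both genes every after array lay above every before array, as in 2.07% of all probe sets. They were named for the smallest unadjusted p of this list, a choice that favours groups without overlap. After 2, low for FOS, DUSP1 and IER3, was the highest array in both. The changes were 0.41 ± 0.25 (SE) for DUSP10 and 0.37 ± 0.24 for SPRY2. RGS1, a regulator of G protein signalling, was lower by mean, with a change of -0.67 ± 0.49. It was at 5.22 on after 3 and between 6.70 and 7.25 on the other 5 arrays, and without after 3 its change was -0.08. DUSP2, DUSP4, DUSP5 and DUSP6 are not analysed here.

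The ZFP36 family and other proteins of AU-rich mRNAs had 6 of 8 members with a higher mean, and a median of 0.02. The count was 2 of 8 without after 2 and 3 of 8 without before 5, and the median was -0.16 at its lowest on leaving out an array. ZFP36L1 differed by 0.20 ± 0.37 (SE) and ZFP36L2 by 0.01 ± 0.37, and both were highest on before 6 and after 2. ELAVL1 (HuR), which stabilises such mRNAs, differed by 0.33 ± 0.27 and CNOT7, a deadenylase recruited by ZFP36, by -0.55 ± 0.38. Of the cytokine mRNAs that ZFP36 is known to bind, 5 of 8 had a higher mean. TNF differed by 0.35 ± 0.33, IL1B by -0.83 ± 0.48 and CXCL8 by -0.12 ± 0.35. IL1B was lowest on after 1 and after 3, at 5.85 and 5.69, and was at 7.41 on after 2 and at 6.83 to 7.65 before cold.

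Among IER3 and other early response genes, 7 of 9 had a higher mean, with a median of 0.07, and 3 of 9 did with array weights. This median was 0.09 (without after 1) to 0.19 (without after 2) when single arrays were left out, and 0.00028 without after 2 and before 6 together. GADD45B, a stress sensor upstream of p38 and JNK, was at 8.18, 8.22 and 8.25 after cold and at 8.02, 8.07 and 7.98 before. Its groups did not overlap, as in 2.07% of all probe sets with the after arrays higher, and its change was small, 0.19 ± 0.23 (SE). IER2 differed by 0.16 ± 0.28 and NFKBIA, the NF-kappaB inhibitor, by 0.07 ± 0.30. Of the upstream kinases and the CREB factors, 8 of 13 had a higher mean, with a median of 0.04, or -0.13 without after 2. MAP2K1 (MEK1) also had all after arrays above all before arrays, with a change of 0.26 ± 0.25. Both GADD45B and MAP2K1 were named for a small p within their list, which favours groups without overlap. MAPK3 (ERK1) differed by 0.14 ± 0.40, MAPK14 (p38) by -0.03 ± 0.29 and MAPK8 (JNK1) by -0.68 ± 0.45. MAPK8, among the dimmest 25% of probe sets, was at 3.89 on after 3 and between 4.97 and 5.88 on the other 5 arrays. Its change was -0.21 without after 3.

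**Figure D4:**
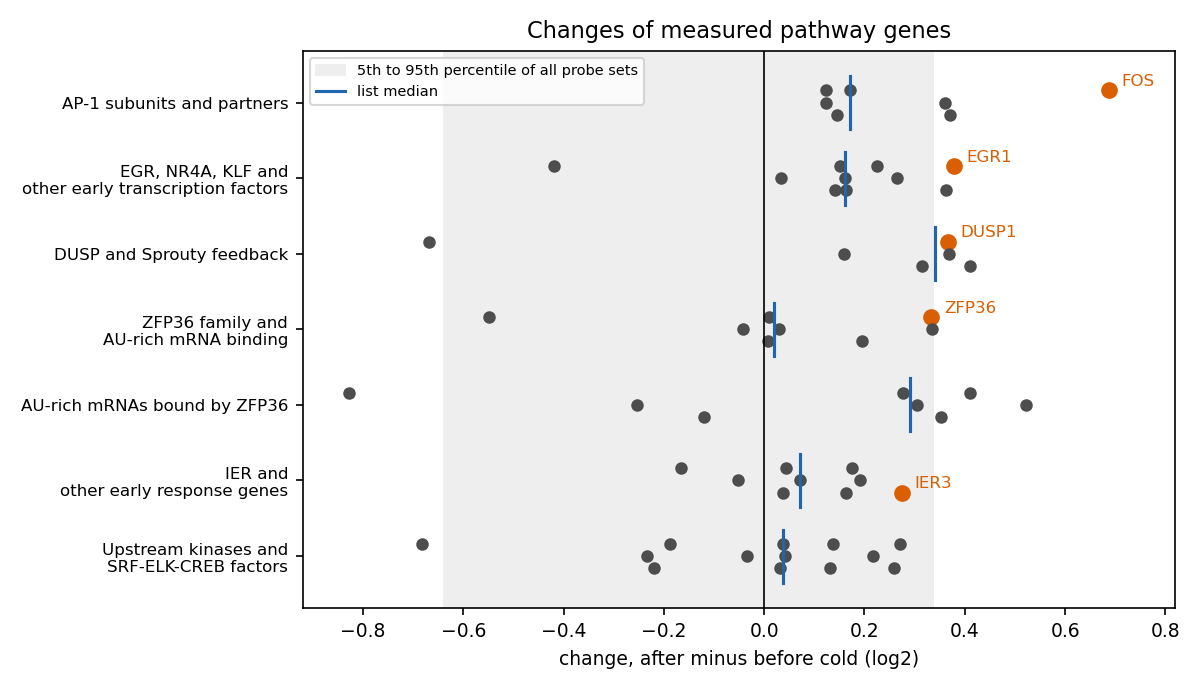
Change after minus before cold (x axis, log2) of every measured gene of the 7 pathway lists (rows), with the 5 members in orange, the other genes in grey and each list's median as a blue line; the shaded band spans the 5th to the 95th percentile of all 12763 probe sets, from -0.64 to 0.34. FOS, EGR1 and DUSP1 lie beyond the band's upper edge, ZFP36 close to it and IER3 inside it, and no point passed the test.

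Markers of the blood cell types are given because their levels moved between the same arrays, and in bulk RNA a change in the number of cells of a type cannot be told apart from a change in RNA per cell. On after 1, where FOS and IER3 were highest, the median deviation of the 7 measured NK and cytotoxic markers of 8 was 0.55, the highest of the 6 arrays. The 3 measured red cell markers of 8 were also highest on after 1, at 0.36, and lowest on after 2 and before 6, at -0.47 and -0.42, the arrays on which IER3 was lowest too. Their mean level ran from 9.89 to 10.54 after and from 9.87 to 10.30 before cold. On after 3, where EGR1 and ZFP36 were highest, the median deviation of the 5 measured B cell markers of 9 was 0.45. That of the 3 measured eosinophil, basophil and mast cell markers of 9 was -1.10. Members of a set differed. Of the NK and cytotoxic markers 5 were higher on average after cold and 2 lower. GZMB was at 8.09, 8.03 and 7.56 after cold and at 8.24, 8.56 and 8.66 before. Its groups did not overlap, as in 2.31% of all probe sets with lower after arrays. CD79A, CXCR5 and POU2AF1 were highest on after 3. BLK (9.43) was at its lowest after cold there, and MS4A1 (11.21) lay below its levels before cold (11.30 to 11.86). ALOX15 (6.17) and RNASE6 (10.45) were lowest on after 3, but CCR3 (8.64) was lower on after 2 (8.48). The mean level of the NK and cytotoxic markers ran from 7.58 to 8.45 after and from 7.64 to 8.12 before cold. That of the B cell markers ran from 9.92 to 10.15 after and from 9.78 to 9.88 before, and that of the eosinophil, basophil and mast cell markers from 8.42 to 9.44 and from 9.36 to 9.90. The 6 measured monocyte markers of 10 had a median change of -0.24, the 5 neutrophil markers of 11 one of 0.12 and the 11 T cell markers of 13 one of 0.02. Of the monocyte markers 2 were higher on average and 4 lower, with changes from -0.68 to 0.28. In 2 of the lower ones the groups did not overlap, as in 2.31% of all probe sets with lower after arrays. An unadjusted p under 0.05 in limma was seen for 1 lower monocyte marker, as for 0.462% of all probe sets. The median change was -0.24 for the 2 platelet markers of 7 and 0.13 for the red cell markers. On before 5, where no member lay above its own mean, the monocyte, neutrophil and platelet markers had their highest median deviations, 0.58, 0.29 and 0.45. On after 3 the monocyte and neutrophil markers were at 0.37 and 0.22. The T cell markers were at 0.32 on after 1 and at 0.34 on before 4. No marker level was 0, since the lowest intensity in the table was 3.91. The part of cell composition in the members' changes was not tested.

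For each member the 3 single-gene probe sets with the most similar profile over the 6 arrays were listed, by Pearson's r of log2 values, as a description without a test. SMPD2 was closest to FOS (r = 0.989), followed by EIF2D (0.980) and ARL6IP5 (0.973). ZER1 (0.992), TMCO3 (0.992) and TMEM97 (0.989) were closest to EGR1. For DUSP1 they were KLF4 (0.995), which is in the pathway lists, ACAP1 (0.994) and TRIM41 (0.993). TCF3 (0.981), SMARCA4 (0.981) and RABL2B (0.976) were closest to ZFP36, and TEX261 (0.984), SNX1 (0.982) and PCID2 (0.981) to IER3. With 6 arrays high values are common: 48 of 8123 candidate probe sets exceeded an r of 0.9 with FOS and 336 of 8124 did with DUSP1. The changes of these 15 probe sets ran from 0.10 for PCID2 to 0.55 for ACAP1. They were picked for likeness to members with a higher mean after cold, a choice that favours positive changes.

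Across the other settings the members differed in how much their change moved. Filters on dim probe sets, other variance priors, blocks and, for a gene with 1 probe set, the mean of its probe sets cannot alter a change, so only the 12 or 13 alternatives that moved it are counted here. DUSP1, ZFP36 and EGR1 kept a positive change in 12 of 12. FOS, positive in 13 of 13, was at 0.05 with array weights, a setting that gave after 1 a weight of 0.0019 and before 4 one of 30.7. IER3 was at -0.0080 with these weights and positive in the other 11 of its 12. EGR1 and ZFP36, which were not high on after 1, were at 0.69 and 0.49 with the same weights. No alternative brought a member past an adjusted p of 0.05 in limma.

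**Figure D5:**
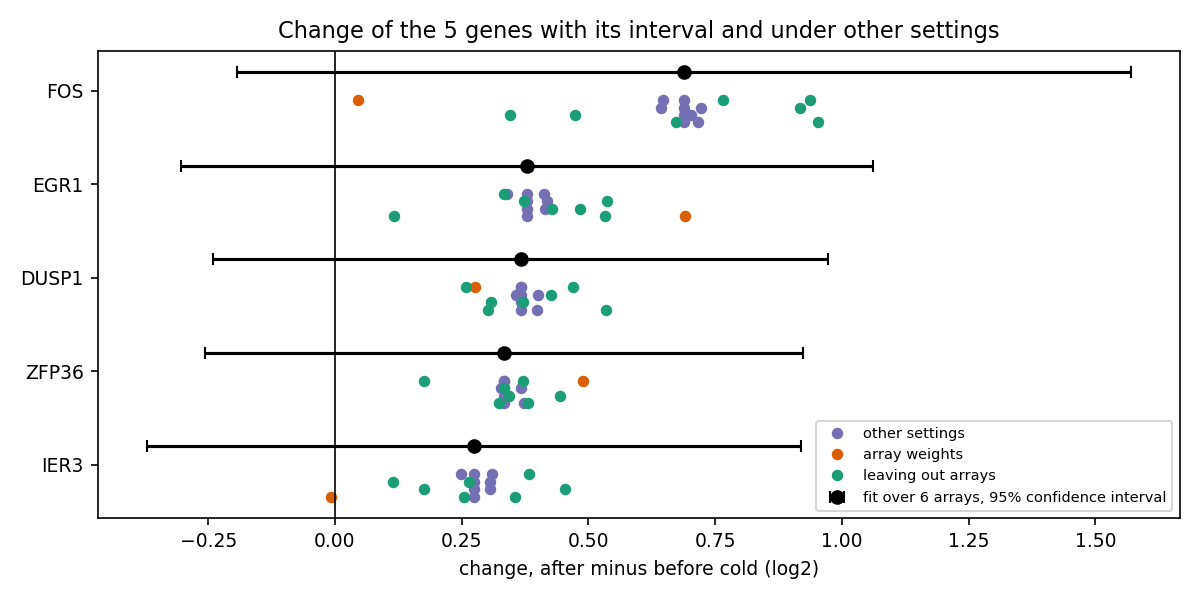
Change after minus before cold (x axis, log2) of the 5 genes: black points with bars are the fit over 6 arrays with its 95% confidence interval, and coloured points are the alternatives (green, arrays left out; orange, array weights; purple, other settings; the blocks for matchings leave the change as it is and are not drawn). Every interval spans 0, and FOS and IER3 are at 0.05 and -0.0080 with array weights while EGR1 and ZFP36 are at 0.69 and 0.49.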

How the data were processed

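Total RNA of white blood cells was biotin-labelled and hybridised to a bovine Affymetrix array, 1 array per sample, 6 in all. The authors deposited an intensity per probe set on a linear scale. The submitters' processing notes list GCOS and RMA and no versions. Genome build and filters were not given in the sources used here. For all tests the log2 of these deposited intensities (3.91 to 18225, array medians 7.25 to 7.49 on the log2 scale) was used with no further normalization, no offset and no filter. The number of arrays limits the precision, and nothing says how much of the spread is technical.

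Gene names came from the platform's annotation: 8125 had 1 symbol, 56 several and 4582 none. Of the 8125, 8109 matched a gene ID in the RefSeq gene table of assembly ARS-UCD2.0, with 0 symbols changed. A gene stood as its probe set with the highest mean. Groups were compared with limma 3.58.1 in R 4.3.3, with no block, two-sided, with Benjamini-Hochberg adjustment over 12763 probe sets. Single members were also given an exact permutation test.

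Named genes were the members, a list of pathway genes named whatever their values, the 2 genes of each of the 7 lists with the smallest p, and the 3 probe sets most like each member. Other genes of the lists enter the counts. RGS1, ELAVL1, GZMB and the single markers of B cells and of eosinophils, basophils and mast cells were named after their values were seen. Members, lists and alternatives were chosen with earlier results of these data known. Alternatives were filters on the dimmest 25% or 50%, a variance trend, its robust form, array weights, centring on the array median, normalization by quantiles or by cyclic loess, the mean of a gene's probe sets, an offset of 16, arrays left out, and a block for each matching. The comparison was also run on a simulation of 12763 probe sets. Recovery there was 4.48% at a simulated log2 change of 1 (67 probe sets), 59.7% at 2 (67) and 86.4% at 3 (66). False calls numbered 6. Whether such rates hold for the real arrays was not tested. Their first principal component held 68.4% of the variance, and 0.494% of their probe sets had an unadjusted p under 0.05 in limma.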

Additional observations from a re-analysis of the deposited data

How the results depend on the processing

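The number of probe sets past the limma threshold was 0 in all 23 alternatives, beside 63 at an unadjusted p under 0.05 over the 6 arrays. The labels give the groups no shared numbers to pair samples by, and the block for each of the 6 matchings changed no call. The change of IER3 became -0.0080 with array weights, whose estimate stopped before its tolerance was reached. All 5 genes had a higher mean in the other alternatives with all of them measured, and 3 did without the dimmest 50% of probe sets, where EGR1 and IER3 were filtered out. Leaving out each array gave changes of 0.35 to 0.95 for FOS (0.29 to 0.88 for its other probe set), 0.12 to 0.54 for EGR1, 0.26 to 0.53 for DUSP1, 0.18 to 0.44 for ZFP36 and 0.12 to 0.45 for IER3. Their lowest adjusted p over all alternatives were 0.310, 0.310, 0.454, 0.401, 0.491 and 0.445, in that order. Median centring, quantile and cyclic loess normalization kept every member's direction and moved the median of all probe sets from 0.02 to 0.05, 0.07 and 0.06. Unadjusted p-values under 0.05 in limma were seen for FOS without after 2 (0.0280, other probe set 0.0288), where 1787 of all probe sets (14%) had one, and with the block for 1-4, 2-6, 3-5 (0.0114 and 0.0140), where 1168 (9.15%) did. EGR1 had one with array weights (0.0342), where 662 (5.19%) did. These shares count both directions. Probe sets with such a p that were higher after cold, as FOS and EGR1 were, made up 0.995%, 1.96% and 0.744% of all, in that order of settings. Counting only alternatives that moved it, the list median was positive in 10 of 12 for the ZFP36 family, in 13 of 14 for its target mRNAs and for the IER list, in 11 of 14 for the upstream list, and in all for the others. Signal over background was not used here, so what dim signal limits was not tested.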
